A study of Mus musculus with 4 samples.

Results

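The cells described here are mouse bone marrow cells rich in transcripts of the primary granule proteases and taken as the granulocyte-monocyte progenitors of this marrow by a rule on 4 genes. A member had 500 to 4000 detected genes, at most 15% mitochondrial unique molecular identifiers (UMIs, the tags that mark single captured mRNA molecules), at least 1% of its UMIs from Mpo, Elane, Prtn3 and Ctsg together, and under 1% from the specific granule genes Camp, Ngp and Ltf together. The rule found 360 members among 31457 filtered cells: 67 in TWT, 93 in IL-6 KO, 105 in TKO and 95 in DKO. Members were thus chosen by the measured levels of these 7 genes, which are given as a description only.

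Granulocyte-monocyte progenitors are the marrow stage from which neutrophils and monocytes arise. As such cells commit to the neutrophil fate they fill their first, azurophil granules with myeloperoxidase (Mpo) and serine proteases (Elane, Prtn3, Ctsg), and later, as myelocytes, they switch to the proteins of specific granules (Ltf, Camp, Ngp, Lcn2). Transcripts of the proteases are therefore abundant in a short window before the specific granule genes come on.

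The mice were 12 months old, on a C57/B6 background, and carried constitutive alleles, so that every cell of the marrow lacked the gene. TWT had IL6+/+, mDia1+/+ and miR146a+/+, and IL-6 KO had IL6-/- with both other genes intact. DKO had IL6+/+ with mDia1-/- and miR146a-/-, a mouse model of myelodysplastic syndrome. TKO lacked all 3 genes, so that by its label TKO differs from DKO by IL6 alone. The paper reports leukemia in most DKO mice near this age, largely rescued without IL-6, so disease state may differ between DKO and TKO as well. Each genotype gave 1 library of femur and tibia marrow after red cell lysis (10x Genomics 3′ v3 chemistry). There is thus no replicate, no test between genotypes was possible, and the number of mice per library was not given in the sources used here. All intervals are exact 95% intervals (Poisson for levels, conditional binomial for ratios of levels, Clopper-Pearson for shares) that cover counting error only, and summed levels cannot tell a change per cell from a change in the mix of cells.

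The 4 genes of the rule lie at chr10:79886247-79888215 (Elane), chr10:79874476-79883174 (Prtn3, the neighbour of Elane), chr11:87793581-87804413 (Mpo) and chr14:56099881-56102574 (Ctsg) in GRCm38. Stretches of their promoters are shown because all 4 hold the same 7 letters AGGAAGT, a match to the Ets family to which the myeloid factor PU.1 belongs, on the gene's strand. Each sequence is read 5′ to 3′ on the strand of its gene, with the match in capitals, from the RefSeq promoters of GRCm38.p6.
Mpo: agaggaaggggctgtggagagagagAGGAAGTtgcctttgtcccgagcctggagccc
Elane: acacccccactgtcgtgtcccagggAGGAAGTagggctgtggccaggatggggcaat
Prtn3: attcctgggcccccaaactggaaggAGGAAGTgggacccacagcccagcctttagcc
Ctsg: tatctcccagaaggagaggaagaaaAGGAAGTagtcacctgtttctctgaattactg
The Mpo stretch is chr11:87793536-87793592 (plus strand). The Elane stretch is chr10:79886203-79886259 (plus strand). The Prtn3 stretch is chr10:79879548-79879604 (plus strand). The Ctsg stretch is chr14:56102749-56102805 (minus strand). The matches begin 223, 84, 94 and 206 bases upstream of the RefSeq start of Mpo, Elane, Prtn3 and Ctsg. The GENCODE models of Mpo, Elane and Prtn3 begin within or upstream of these stretches, so they are promoter sequence for the RefSeq start only. AGGAAGT was chosen after these 4 promoters had been read, and on either strand it was in 7.69% of 32851 promoters (250 bases before the start). TTGCNNAA, a C/EBP family match also sought on both strands, was in 9.56% of promoters and in 0 of these 4.

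miR-146a, the microRNA absent from DKO and TKO, is shown with its seed (bases 2 to 8) in capitals, from RefSeq (GRCm38, chr11:43374435-43374456, minus strand).
mmu-miR-146a-5p: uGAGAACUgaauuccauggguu
The 2 matches to this seed in the 3′ untranslated region of Irak1, the kinase downstream of Toll-like receptors that is a known target of miR-146a, are shown with the match in capitals, starting at bases 40 and 56 of 1526 (GENCODE M21).
Irak1 first site: agactcagaggtcaaAGTTCTCa
Irak1 second site: gttctcatgcttggaAGTTCTCa

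The 4 libraries held 8423 to 10866 cell barcodes and 61292684 to 85145074 UMIs. Between 19 and 36 barcodes were shared by any pair of libraries, and 0 of them were members in both. Members were deep, with a median of 17413 UMIs per cell in DKO, against 17632 in TWT, 17395 in IL-6 KO and 18376 in TKO, and their summed UMIs ran from 1091992 to 1752126. Diaph1, which encodes mDia1, had 6.58 CPM in DKO, against 103 in TWT, 95.7 in IL-6 KO and 6.28 in TKO (CPM, UMIs per 1000000 UMIs of a library's members), low in both genotypes labelled mDia1-/-. Il6 had 2 UMIs in IL-6 KO members and 0 in the others, too few to check its label. Xist was at 884 CPM in IL-6 KO and at 0 UMIs in members of the other 3 libraries, and the labels give no sex.

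The label was checked against genes the rule did not use. Ms4a3, a membrane protein of granulocyte-committed progenitors, was found in 95.5 to 100% of members, at 2785 CPM in DKO, against 1996 in TWT, 1757 in IL-6 KO and 2027 in TKO. Markers of the multipotent end were low: Cd34 was at 2.39 CPM in DKO, against 7.33 in TWT, 25.2 in IL-6 KO and 9.70 in TKO, and the cytokine receptor Flt3 at 0 to 2.66 CPM. Genes of neutrophil commitment were high instead. Cebpe, the factor of the promyelocyte to myelocyte step, was at 336 CPM in DKO, against 353 in TWT, 317 in IL-6 KO and 356 in TKO, and S100a8, a neutrophil calcium-binding protein, was at 14413 CPM in DKO, against 19006 in TWT, 15357 in IL-6 KO and 14000 in TKO. The members thus carried the granule genes of their label, little Cd34 or Flt3 and much of the neutrophil program. They are called Elane/Prtn3-high cells below. Kit was more common, with a UMI in 28.4 to 61.3% of members. Thinned to 2000 UMIs, 0 to 4.44% of members had a Cd34 UMI. Of cells above 4000 genes that met the granule rule, 7.14% had one in DKO, against 11.6% in TWT, 13.7% in IL-6 KO and 10.1% in TKO.

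Elane/Prtn3-high cells made up 0.986% (0.765 to 1.25) of filtered cells in TWT, 1.24% (1.01 to 1.52) in IL-6 KO, 1.39% (1.14 to 1.68) in TKO and 0.987% (0.799 to 1.21) in DKO. The intervals of all 4 libraries overlapped. The values next to the threshold were few: 5 members in DKO, against 2 in TWT, 8 in IL-6 KO and 6 in TKO had 1% to 1.5% of UMIs from the 4 genes, and 10 cells in DKO, against 15 in TWT, 16 in IL-6 KO and 30 in TKO had 0.5% to 1% and stayed outside.

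The upper limit of 4000 genes, which the study's methods set, removed most cells of this kind in 3 libraries. Without it, 123 cells in DKO, against 240 in TWT, 210 in IL-6 KO and 293 in TKO met the granule rule, and the shares became 3.23% (2.84 to 3.65) in TWT, 2.66% (2.32 to 3.04) in IL-6 KO, 3.60% (3.20 to 4.02) in TKO and 1.24% (1.03 to 1.48) in DKO. The DKO share then lay below the other 3, with intervals apart. Of cells meeting the granule rule, those above the limit were 22.8% in DKO, against 72.1% in TWT, 55.7% in IL-6 KO and 64.2% in TKO. Among cells of every type kept without this limit, those above 4000 genes were 2.78% in DKO, against 8.68% in TWT, 5.34% in IL-6 KO and 7.22% in TKO. Members of DKO were therefore most of their kind, whereas members of the other libraries were the gene-poor part of it. Equal UMIs did not remove the difference in gene number: thinned to 5000 UMIs, a cell had a median of 1597 genes in DKO, against 1712 in TWT, 1709 in IL-6 KO and 1661 in TKO among members and 1638 genes in DKO, against 1789.5 in TWT, 1791 in IL-6 KO and 1755 in TKO with no limit. Many calls depended on this limit: of the genes called between DKO and TWT in members (below), 18 of 40 higher and 92 of 150 lower were called with no limit as well.

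**Figure D1:**
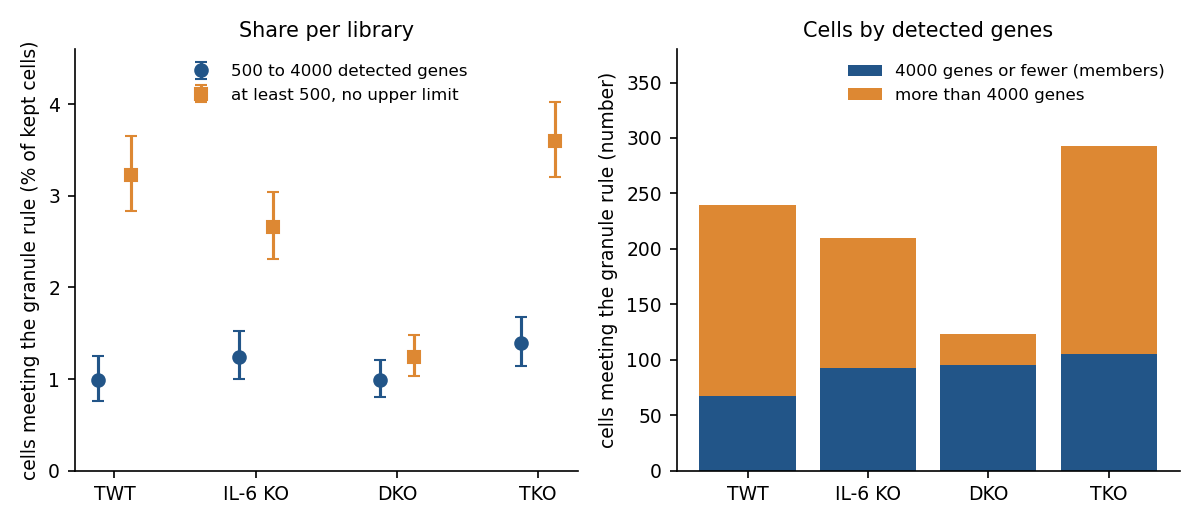
Left, share of kept cells (%) that met the granule gene rule in each library, with 500 to 4000 detected genes (members) and with no upper limit, and exact 95% intervals of counting error. Right, the number of those cells with at most 4000 genes and with more, as stacked bars. The members lie between 0.986% and 1.39%, and with no limit DKO (1.24%) lies below TWT (3.23%), IL-6 KO (2.66%) and TKO (3.60%).

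Among the rule's own genes, Mpo stood apart in DKO. Mpo, which makes hypochlorous acid from hydrogen peroxide, was at 3759 CPM in DKO, against 7995 in TWT, 7451 in IL-6 KO and 6186 in TKO. The DKO level was the lowest, with a log2 ratio to TWT of -1.09 (-1.14 to -1.04) and to TKO of -0.72 (-0.76 to -0.67). Per cell, the median share of UMIs was 0.373% in DKO, against 0.826% in TWT, 0.735% in IL-6 KO and 0.605% in TKO, with interquartile ranges of 0.610% to 0.966% in TWT and 0.288% to 0.459% in DKO that did not overlap. In cells above 4000 genes Mpo was at 2822 CPM in DKO, against 5935 in TWT, 6061 in IL-6 KO and 4505 in TKO, again lowest in DKO. With no limit on genes the log2 ratio of DKO to TWT was -0.87, short of 2-fold. Among all nonmembers this ratio was -1.40, so Mpo was lower in DKO than in TWT outside members too. It was -1.18 in nonmembers with both granule gene sets and -0.94 in those with specific granule genes only.

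The 3 serine proteases were not lowest in DKO. Elane, neutrophil elastase, was at 19206 CPM in DKO, against 18325 in TWT, 17293 in IL-6 KO and 19424 in TKO, and the 4 levels lay close together. Prtn3, proteinase 3, was at 17742 CPM in DKO, against 16917 in TWT, 17399 in IL-6 KO and 21132 in TKO, highest in TKO. Ctsg, cathepsin G, was at 7299 CPM in DKO, against 5082 in TWT, 4913 in IL-6 KO and 5910 in TKO, highest in DKO (log2 ratio to TWT 0.52, 0.48 to 0.57). Srgn, the proteoglycan core on which granule proteases are packed, had a median share per member of 0.538% in DKO, against 0.315% in TWT, 0.303% in IL-6 KO and 0.333% in TKO. S100a9, the partner of S100a8, varied widely within each library, from quartile to quartile 0.202% to 2.21% in TWT and 0.192% to 2.81% in DKO. Since all 4 genes enter the rule, Mpo was also measured under a rule that does not use it. With membership set by Elane, Prtn3 and Ctsg alone, the log2 ratio of DKO to TWT was -1.09.

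**Figure D2:**
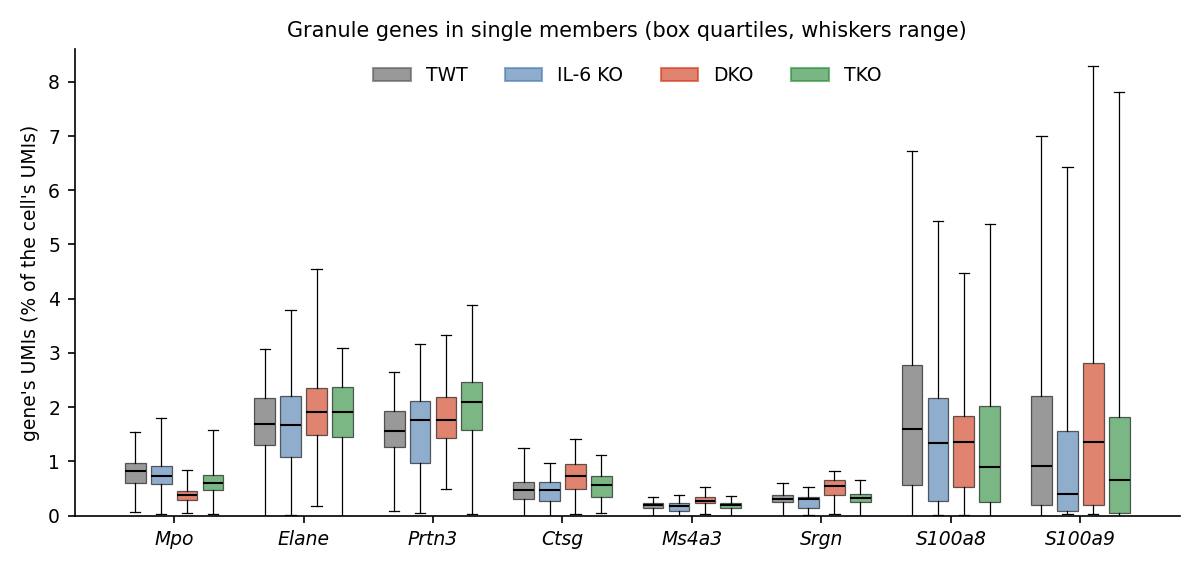
Share of each member's UMIs (%) from 8 granule and neutrophil genes by library, with boxes from the lower to the upper quartile, a line at the median and whiskers over the whole range of cells. Mpo is lowest in DKO (median 0.373% against 0.826% in TWT), and Ctsg is highest there (0.730% against 0.473%).

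Kit, the stem cell factor receptor, marks the less mature of these cells. After each cell was thinned to 2000 UMIs, Kit was found in 5 of 63 cells (7.94%, 2.63 to 17.6) in TWT, 10 of 90 cells (11.1%, 5.46 to 19.5) in IL-6 KO, 6 of 103 cells (5.83%, 2.17 to 12.2) in TKO and 2 of 95 cells (2.11%, 0.256 to 7.40) in DKO. DKO was lowest, with an interval that overlapped all others. In B cells (Ms4a1 and Cd79a present, Vpreb3 and Mki67 absent), which lack Kit, 0 to 0.472% had a Kit UMI, at median depths of 2419 to 2863 UMIs before thinning. Without thinning the shares of members with Kit were 28.4% in DKO, against 59.7% in TWT, 61.3% in IL-6 KO and 43.8% in TKO, and the summed level was 20.9 CPM in DKO, against 60.4 in TWT, 65.8 in IL-6 KO and 35.4 in TKO, lowest in DKO and highest in IL-6 KO as well. Cd34 was found in 1 of the thinned members in DKO, against 0 in TWT, 4 in IL-6 KO and 2 in TKO, and the 0 of 63 in TWT allows a share of up to 4.76% (3 counts of the total) of cells with a UMI at this depth, not of cells that express the gene. Without thinning a Cd34 UMI was found in 2 members in DKO, against 8 in TWT, 16 in IL-6 KO and 11 in TKO. In cells above 4000 genes a Kit UMI was found in 0% in DKO, against 15% in TWT, 18.8% in IL-6 KO and 7.98% in TKO, and the 0 of 28 in DKO allows up to 10.7% with a UMI in the same sense. Without thinning 10 of these 28 cells had one.

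Dividing cells were common in every library. At least 2 UMIs of 6 mitotic genes (Mki67, Top2a, Cdk1, Birc5, Ube2c, Nusap1) were found in 26 of 63 cells (41.3%, 29 to 54.4) in TWT, 45 of 90 cells (50%, 39.3 to 60.7) in IL-6 KO, 46 of 103 cells (44.7%, 34.9 to 54.8) in TKO and 37 of 95 cells (38.9%, 29.1 to 49.5) in DKO, against 0 B cells. The B cells were chosen to lack Mki67, which is among these mitotic genes, so their 0 was partly set by that choice. They are therefore no independent background for this score. The intervals of members of the 4 libraries overlapped. Cells that also held the specific granule genes, one step later, had values of 50.4% in DKO, against 67.5% in TWT, 60.2% in IL-6 KO and 68.5% in TKO, and there DKO was lowest as well at this depth. The order changed with depth. Thinned to 5000 UMIs, IL-6 KO was lowest among members (65.5%), with DKO at 76.3%. In the later cells DKO and IL-6 KO were then nearly equal, at 84.4% and 84.5%.

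Few members leaned to monocytes. A cell was counted as monocyte-leaning when 8 monocyte genes (such as Irf8, F13a1, Csf1r) gave more UMIs than 8 neutrophil genes (such as Gfi1, Cebpe, Fcnb) after thinning, which is a range on a score and not a cell type. This held for 3 of 63 cells (4.76%, 0.993 to 13.3) in TWT, 13 of 90 cells (14.4%, 7.92 to 23.4) in IL-6 KO, 8 of 103 cells (7.77%, 3.41 to 14.7) in TKO and 3 of 95 cells (3.16%, 0.656 to 8.95) in DKO. Above 4000 genes the shares were 10.7% in DKO, against 24.9% in TWT, 37.6% in IL-6 KO and 37.8% in TKO. The monocyte-leaning cells beyond the limit numbered 3 in DKO, against 43 in TWT, 44 in IL-6 KO and 71 in TKO, more than among members in each library but DKO, where both numbers were 3. B cells, which express Irf8 themselves, gave 62 to 69.4% and are no background for this score. Irf8, the factor that directs progenitors to monocytes, was at 29.3 CPM in DKO, against 52.2 in TWT, 135 in IL-6 KO and 57.1 in TKO, highest in IL-6 KO.

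The members with the smallest share of granule genes carried most of the Irf8 transcripts. Irf8 was at 513, 630.1, 294 and 590.2 CPM (TWT, IL-6 KO, DKO, TKO) in members with 1% to 3% of UMIs from the 4 genes (11, 23, 10 and 15 cells), and at 0 to 2.56 CPM in those above 5%. Cebpe went the other way, from 14.9 to 200.3 CPM in the first range to 365 to 414 CPM above 5%. Mpo in DKO was below the other libraries in each range: 1451 CPM from 1% to 3% where the others had 2517 to 5313, 3569 from 3% to 5% where they had 6822 to 8800.1, and 4339.9 above 5% where they had 6413 to 7882. The ranges are set by a sum that includes Mpo, so its levels within them are a description only. The range from 1% to 3% also mixes depths, with a median of 2332 UMIs per member in TWT and 16625 in DKO.

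**Figure D3:**
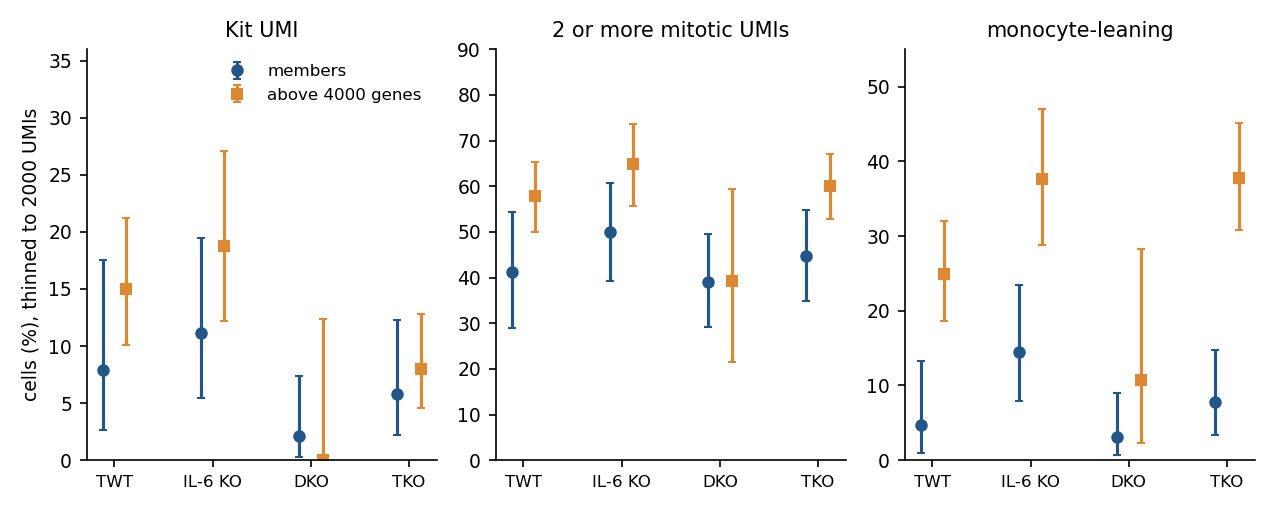
Shares of cells (%) with a Kit UMI, with at least 2 mitotic UMIs and leaning to monocytes, after thinning to 2000 UMIs, in members and in cells above 4000 genes, with exact 95% intervals. DKO members are lowest for Kit (2.11%) and for monocyte-leaning cells (3.16%), with intervals that overlap those of the other members.

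The comparison of DKO with TWT asks what the loss of mDia1 and miR-146a goes with in these cells. Of 2312 genes measured in members (mean of at least 50 CPM over the 4 libraries), 40 (1.73%) were at least 2-fold higher in DKO and 150 (6.49%) at least 2-fold lower, with a median log2 ratio of 0.08 over all measured genes. Both counts include a gene of the rule, Ngp among the higher and Mpo among the lower, whose levels helped to choose the members. A 2-fold difference is a log2 ratio of 1 with a pseudocount of 1 CPM, so changes of low genes are understated. The split moved with the scaling: higher genes were 21.1% of those 2-fold apart in CPM and 13.8% under median-of-ratios scaling. DKO was 2-fold apart from all 3 other libraries, in the same direction, for 11 genes higher and 45 lower (leaving out the rule's, sex-linked, mitochondrial, immunoglobulin and predicted genes). All 3 comparisons share the DKO library.

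Chil3 and Lcn2, secreted proteins of later neutrophils, had the highest log2 ratios of the 11 higher genes. Chil3, a chitinase-like protein, was at 1389.7 CPM in DKO, against 153 in TWT, 256 in IL-6 KO and 166 in TKO. It was found in 95.8% of DKO members and 58.2% of TWT members, and the log2 ratio was 3.18 (2.96 to 3.42). A small number of cells held much of it: 3 cells gave 30.5% of the DKO UMIs, and the 10 DKO members with 1% to 3% of granule genes were at 6754 CPM, those above 5% at 796 CPM. Lcn2, lipocalin 2, an iron-siderophore binding protein of specific granules, was at 681 CPM in DKO, against 128 in TWT, 167 in IL-6 KO and 129.6 in TKO (log2 ratio 2.40, 2.15 to 2.67). Every DKO member had a Lcn2 UMI, against 70.1% of TWT members.

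Free RNA in the droplets also carries such genes, and its level is seen in B cells. A DKO B cell held 1.54 UMIs of Chil3 and 2.26 of Lcn2 on average, where a DKO member held 24.4 and 12, and a TWT member 2.49 and 2.09. In B cells the log2 ratio of DKO to TWT was 2.35 for Chil3 and 1.79 for Lcn2. S100a6, an S100 calcium-binding protein, was at 284 CPM in DKO, against 56.8 in TWT, 138 in IL-6 KO and 66.2 in TKO, but a DKO member held 5.0 UMIs and a DKO B cell 7.03 by mean, and 2.0 and 1.0 by median. Lgals3 (galectin 3) was at 153 CPM in DKO, against 30.2 in TWT, 57.1 in IL-6 KO and 43.4 in TKO, with 2.68 UMIs per DKO member and 1.39 per DKO B cell. Ifitm3 (an antiviral membrane protein) was at 165 CPM in DKO, against 38.5 in TWT, 78.4 in IL-6 KO and 71.3 in TKO, with 2.89 and 1.32 UMIs. The part of free RNA in these ratios was not tested.

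The other genes higher in DKO than in every other library were spread over several functions. Slpi, an inhibitor of elastase and cathepsin G, was at 858 CPM in DKO, against 326 in TWT, 306 in IL-6 KO and 263 in TKO (log2 ratio to TWT 1.39, 1.23 to 1.57), and Ctsc, the protease that activates Elane, Prtn3 and Ctsg, was at 98.8 CPM in DKO, against 44.9 in TWT, 27.9 in IL-6 KO and 30.8 in TKO (1.12, 0.67 to 1.63). The annexins Anxa2 and Anxa5, phospholipid-binding proteins, were at 73.3, 77.1, 221 and 86.2 CPM and 77.8, 81.1, 166 and 81.6 CPM (TWT, IL-6 KO, DKO, TKO). Nfkbia, the inhibitor that NF-κB itself induces, was at 249 CPM in DKO, against 98.9 in TWT, 70.4 in IL-6 KO and 88.5 in TKO (1.32, 1.02 to 1.65). Rbm3, a cold-inducible RNA-binding protein, was at 1845 CPM in DKO, against 869 in TWT, 456 in IL-6 KO and 858 in TKO. DKO was also highest and IL-6 KO lowest for Rbm3 in B cells (516, 231, 967 and 398 CPM) and among all nonmembers (480.1, 278, 1044 and 491 CPM), so it was higher in DKO outside members too. Among nonmembers the log2 ratio of DKO to TWT was 1.12 for Rbm3, 1.77 for Ctsc, 1.47 for Nfkbia, 1.46 for Anxa5 and 0.81 for Anxa2, and -1.18 for Slpi, the opposite direction. TWT B cells held Slpi at 5353 CPM, with a mean of 18.3 UMIs per cell and a median of 0. In nonmembers with both granule gene sets the Slpi ratio was 0.69, and in those with specific granule genes only it was 0.42. Of these genes, Slpi and Anxa5 depended on the limit: the log2 ratio to TWT with no limit on genes was 0.98 for Slpi and 0.95 for Anxa5, just short of 2-fold, and 1.57 for Ctsc.

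Ngp, a cathelicidin-like protein of specific granules that the rule limits, was at 801 CPM in DKO, against 187 in TWT, 304 in IL-6 KO and 364 in TKO, and its partner in the rule Camp at 1199 CPM in DKO, against 1378 in TWT, 884 in IL-6 KO and 966 in TKO. Hp (haptoglobin) was at 2380.2 CPM in DKO, against 1037 in TWT, 1031 in IL-6 KO and 1204 in TKO, Anxa1 at 999.5 CPM in DKO, against 367 in TWT, 233 in IL-6 KO and 508 in TKO and Lyz2 (lysozyme) at 809 CPM in DKO, against 273 in TWT, 570.1 in IL-6 KO and 412 in TKO. All but Camp were 2-fold higher in DKO than in TWT. Hp, Anxa1 and Lyz2 were just short of 2-fold against TKO, at log2 ratios of 0.98, 0.98 and 0.97. With no limit on the specific granule genes the log2 ratio of DKO to TWT was 0.33 for Lyz2 and 1.83 for Chil3.

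Fcnb, Hdc and Hk3 were among the genes lower in DKO than in every other library. Fcnb (ficolin B), a lectin made by myeloid precursors, was at 173 CPM in DKO, against 694 in TWT, 457 in IL-6 KO and 391 in TKO, with a log2 ratio to TWT of -2.0 (-2.21 to -1.81) and to TKO of -1.17 (-1.38 to -0.98). The share of members with a Fcnb UMI was 84.2% in DKO, against 82.1% in TWT, 77.4% in IL-6 KO and 75.2% in TKO, so DKO had the lowest level and the highest share of cells with a UMI. Hdc (histidine decarboxylase, the enzyme of histamine synthesis) was at 28.1 CPM in DKO, against 113 in TWT, 109 in IL-6 KO and 99.3 in TKO, and Hk3 (a myeloid hexokinase) at 54.5 CPM in DKO, against 201 in TWT, 197 in IL-6 KO and 147 in TKO. DKO was lowest for all 3 genes, also above 4000 genes, where the log2 ratios to TWT were -2.39, -1.63 and -1.51. Among nonmembers these log2 ratios were -0.76, -1.15 and -1.02, so the 3 genes were lower in DKO than in TWT outside members too.

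The other genes with the lowest ratios had varied functions. Ddx17, an RNA helicase, was at 19.2 CPM in DKO, against 109.9 in TWT, 84.4 in IL-6 KO and 54.8 in TKO, and Nup210, a nuclear pore protein, at 17.4 CPM in DKO, against 76 in TWT, 95.7 in IL-6 KO and 55.4 in TKO. Uhrf1, which maintains DNA methylation at replication, was at 21.5 CPM in DKO, against 92.5 in TWT, 53.8 in IL-6 KO and 62.2 in TKO, and Lars2, the mitochondrial leucyl-tRNA synthetase, at 12.6 CPM in DKO, against 103 in TWT, 104 in IL-6 KO and 50.2 in TKO. Cyfip2, a subunit of the WAVE actin regulator, Emilin1, an extracellular matrix glycoprotein, and BC005537 were at 81.5, 76.4, 20.9 and 47.4 CPM, 101, 101, 26.9 and 65.6 CPM and 150.2, 126, 35.3 and 82.8 CPM (in that order of libraries: TWT, IL-6 KO, DKO, TKO). TKO lay between DKO and TWT for all 7 genes. Among nonmembers the log2 ratio of DKO to TWT was -2.25 for Uhrf1, -1.81 for Nup210, -1.08 for Cyfip2 and -1.05 for Ddx17. It was -0.73 for BC005537 and -0.55 for Lars2, and 0.61 for Emilin1, the opposite direction. Gm42418, a model that holds ribosomal RNA sequence, was also lowest in DKO, at 2377, 2164, 578 and 1259 CPM, and so was the mitochondrial share of UMIs per member, with medians of 2.89% in DKO, against 4.77% in TWT, 4.94% in IL-6 KO and 4.09% in TKO. Their part in these differences was not tested.

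The longest annotated transcript had a median of 4712 bases for the 150 lower genes, 1546 bases for the 40 higher genes and 2450 bases for all measured genes. Against TKO the medians were 4556 and 1479 bases.

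**Figure D4:**
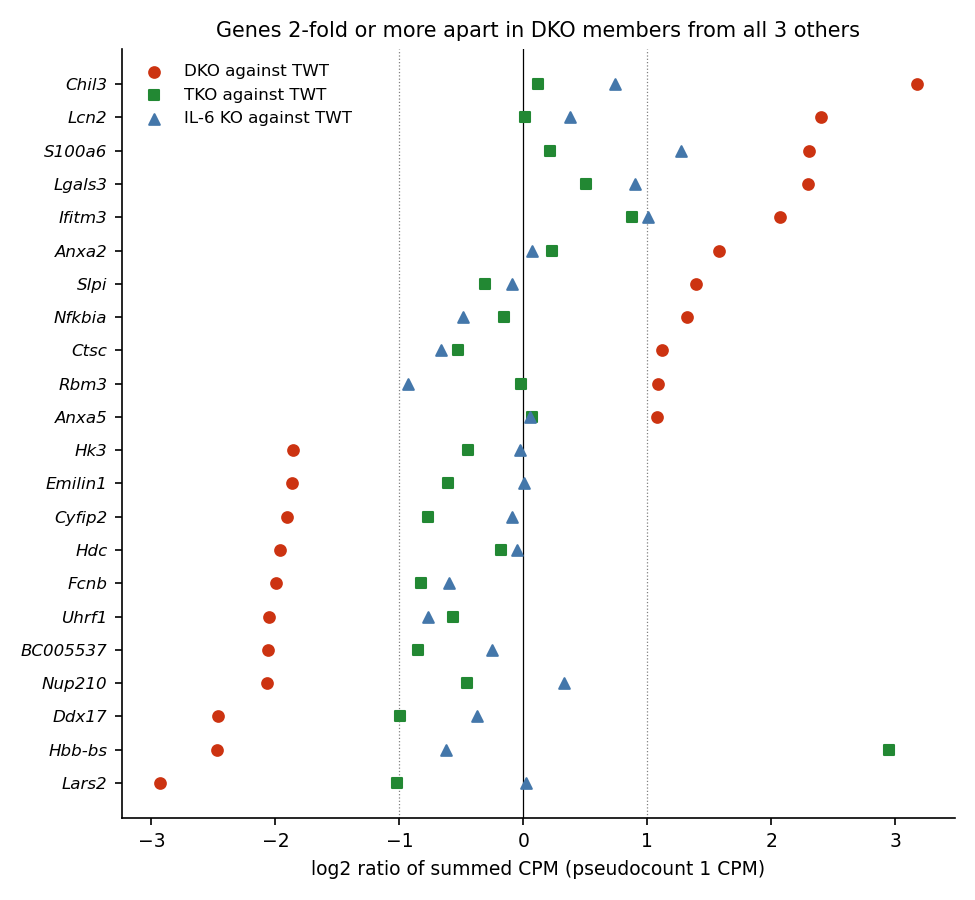
Log2 ratios to TWT of CPM summed over members (x axis) for 22 of the 23 named genes at least 2-fold apart in DKO from all 3 other libraries, for DKO, TKO and IL-6 KO. Prss34 is left out because DKO had 0 UMIs, and Chil3 (3.18) is the highest DKO value and Lars2 (-2.93) the lowest.

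Gene lists were described by how many of their measured members were 2-fold apart between DKO and TWT and by their median log2 ratio, beside 0.08 for all measured genes. Beside each count stand the 1.73% of all measured genes that were higher and the 6.49% that were lower. Where 4 levels follow each other, they stand for TWT, IL-6 KO, DKO and TKO. The early granulocytic list outside the rule, which holds the companions of the granule proteases, had a median of -0.01, with 1 (Hp) of 18 genes higher and 1 (Fcnb) lower. In the late neutrophil list 4 of 11 were higher (Chil3, Lcn2, Anxa1, Lyz2) and 1 lower (Csf3r, the receptor of granulocyte colony-stimulating factor, 76.9, 75.1, 23.3 and 54.8 CPM), median 0.20. Protease processing and inhibitor genes had 2 of 7 higher (Slpi, Ctsc), median 0.62. In this list Serpinb1a, an elastase inhibitor, was at 1087 CPM in DKO, against 867 in TWT, 609 in IL-6 KO and 741 in TKO, and Cst7, a cystatin, at 302 CPM in DKO, against 277 in TWT, 232 in IL-6 KO and 269 in TKO. Monocyte genes had 1 of 6 higher (Lgals3), median -0.24.

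Myeloid transcription factors had a negative median. Of 10 measured, 0 were higher and 1 lower, with a median of -0.66. Fli1, an Ets factor, was at 31.1 CPM in DKO, against 82.4 in TWT, 81.7 in IL-6 KO and 75.9 in TKO, and Myb, which keeps progenitors cycling, at 131 CPM in DKO, against 252 in TWT, 298 in IL-6 KO and 200.3 in TKO (log2 ratio -0.94, -1.20 to -0.68). Fli1 had a log2 ratio of -0.99 with no limit on genes, just short of 2-fold. Cebpa, the factor that sets up granulocyte fate, was at 38.3 CPM in DKO, against 72.3 in TWT, 74.4 in IL-6 KO and 59.4 in TKO, and Gfi1, a repressor needed for neutrophils, at 67 CPM in DKO, against 112 in TWT, 96.3 in IL-6 KO and 107 in TKO. Spi1, which encodes PU.1, went the other way at 397 CPM in DKO, against 299 in TWT, 296 in IL-6 KO and 339.6 in TKO. Of the 23 stem and progenitor genes only Myb, Cdk6 and Lmo2 were measured, 1 of them lower (Cdk6, a cyclin-dependent kinase, 322, 282, 139 and 215 CPM), median -0.94.

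Surface receptors are to be read against the 6.49% of all measured genes that were lower. Of 4 measured trafficking receptors 3 were lower in DKO: Cxcr4, which holds cells in the marrow through the chemokine CXCL12, was at 25.7 CPM in DKO, against 76.9 in TWT, 83.7 in IL-6 KO and 77.6 in TKO, Spn (CD43) at 42.5 CPM in DKO, against 137 in TWT, 95 in IL-6 KO and 81 in TKO, and Cd44 at 32.9 CPM in DKO, against 72.3 in TWT, 69.8 in IL-6 KO and 57.6 in TKO. The list median was -1.33. Of 4 measured cytokine receptors 2 were lower (Csf3r and Tnfrsf1a, 75.1, 66.4, 35.9 and 62.2 CPM), while Csf2ra was at 117, 127, 149 and 120.4 CPM, median -0.50. The IL-6 receptor chains were under the level of measured genes, Il6ra at 19.2, 25.2, 13.2 and 10.8 CPM and Il6st at 2.75, 8.64, 1.20 and 3.42 CPM. Stat3, which IL-6 signaling activates, was at 29.9 CPM in DKO, against 68.7 in TWT, 67.8 in IL-6 KO and 38.2 in TKO, 1 of 3 genes of its list lower (median -0.32). In the Toll-like receptor list Nfkbia was higher, and Irak1 and Nfkb1 (83.3, 73.1, 37.7 and 53.6 CPM) lower, of 4 measured (median -0.76). With no limit on genes the log2 ratios were -0.51 for Tnfrsf1a, -0.66 for Nfkb1 and -0.69 for Stat3, under 2-fold.

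Energy genes differed by the genome that encodes them. Against 6.49% of all measured genes lower and 1.73% higher, of 12 measured mitochondrially encoded genes 4 were lower and 0 higher, with a median of -0.90: mt-Nd3 was at 1050.4, 989, 393 and 740.2 CPM, mt-Nd4l at 359, 359, 159 and 248 CPM, mt-Nd2 at 1684, 1777, 821 and 1547 CPM and mt-Atp8 at 76.9, 53.8, 37.7 and 57.1 CPM. The 67 nuclear genes of oxidative phosphorylation had a median of 0.14, with 0 genes 2-fold apart. Glycolysis had 2 of 10 higher, median 0.64: Gapdh was at 3830.4 CPM in DKO, against 1738 in TWT, 1568 in IL-6 KO and 2722 in TKO and Ldha (lactate dehydrogenase A) at 619 CPM in DKO, against 303 in TWT, 229 in IL-6 KO and 445 in TKO. TKO lay between DKO and TWT for both. B cells and nonmembers showed log2 ratios of DKO to TWT of 1.43 and 1.09 for Gapdh, and with no limit on genes members had 0.96 for Gapdh and 0.80 for Ldha, -0.86 for mt-Nd2 and -0.68 for mt-Atp8, under 2-fold. Ribosomal proteins (80 genes, median -0.02), lysosome (11, 0) and ribosome biogenesis genes (16, 0.07) had 0 genes 2-fold apart.

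The lists of cell cycle and housekeeping genes had few genes 2-fold apart, at shares to be read against 1.73% higher and 6.49% lower of all measured genes. S phase had 2 of 24 lower (Uhrf1, and the helicase subunit Mcm2 at 181, 117, 67.6 and 108 CPM) and 0 higher, median -0.35. G2/M phase had 2 of 25 higher (Ccnb2 at 86.1, 75.1, 178 and 119 CPM, Cenpa at 127, 136, 259 and 144 CPM) and 2 lower (Mki67 at 151, 152, 72.4 and 125 CPM, Hjurp at 76.9, 79.7, 35.9 and 53.1 CPM), median 0.19. ER folding genes had 1 of 20 higher (Herpud1) and 2 lower (Canx, Sec61a1, median -0.01), actin cytoskeleton genes 1 of 19 lower (Myh9, median 0.06), and MHC class I genes 0 of 7 (median -0.13). Of the leukemia genes 1 of 4 was lower (Cdk6, median 0.19), and of the interferon-stimulated genes 1 of 3 higher (Ifitm3, median 0.43). S100 genes had 1 of 6 higher (S100a6, median 0.30), and early response genes 1 of 3 (Ier2, median 0.43). Without the gene limit the log2 ratios of Mcm2 (-0.75), Ccnb2 (0.90), Cenpa (0.65), Canx (-0.95), Myh9 (-0.86) and Ier2 (0.99) were under 2-fold.

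**Figure D5:**
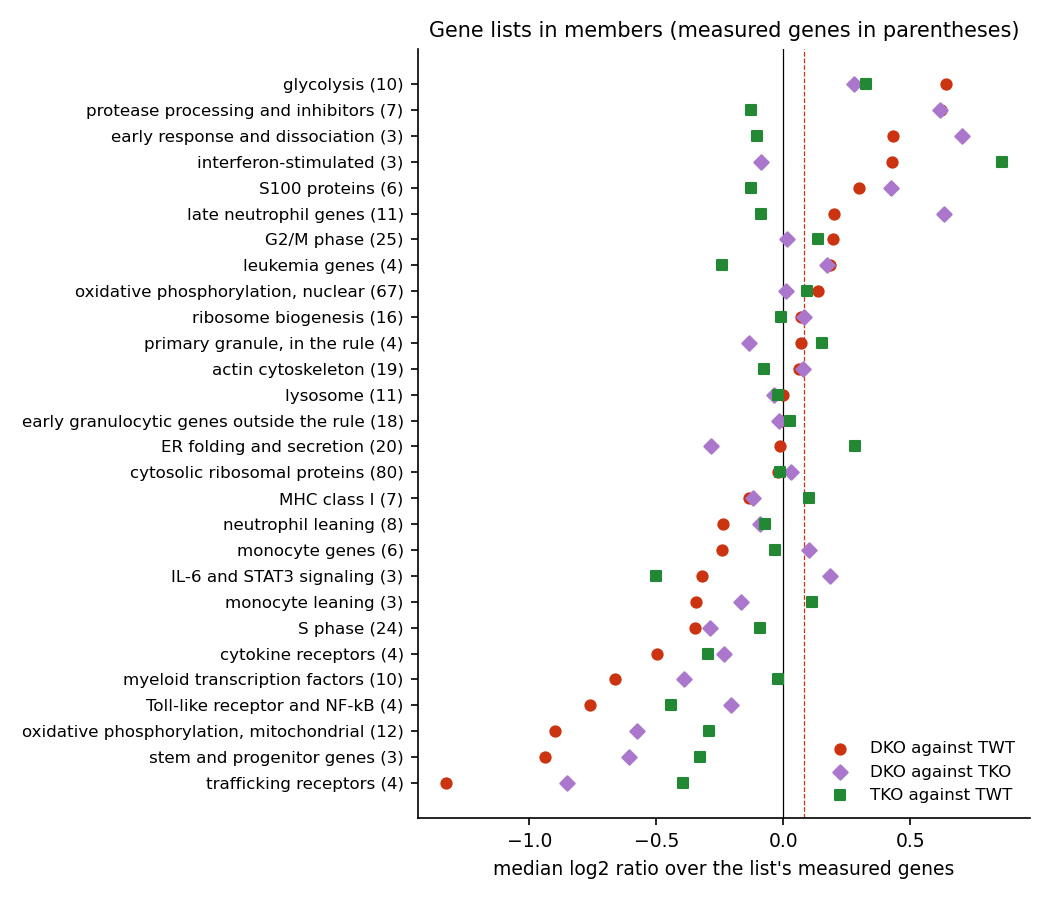
Median log2 ratio of each gene list with at least 3 measured members (x axis) for DKO against TWT, DKO against TKO and TKO against TWT, with the basophil list left out because single cells set it. The dashed line is the median of all measured genes for DKO against TWT (0.08), and in that comparison trafficking receptors (-1.33) are lowest and glycolysis (0.64) highest among the lists drawn.

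DKO against TKO differs by IL6 in the label. Here 14 genes (0.606%) were higher in DKO and 56 (2.42%) lower, at a median of 0.01. The higher genes were Chil3, Lcn2, S100a6, Lgals3, Ifitm3, Anxa2, Slpi, Nfkbia, Ctsc, Rbm3, Anxa5, Ngp (a gene of the rule), Cirbp and Hmgb3. For Chil3 the log2 ratio was 3.06 (2.89 to 3.25), for Lcn2 2.39 (2.19 to 2.61) and for Slpi 1.71 (1.56 to 1.86). For TKO against TWT the same genes had 0.12, 0.02 and -0.31. Among the lower genes were Fcnb (-1.17), Hdc (-1.78), Hk3 (-1.41), Cxcr4 (-1.56) and Csf3r (-1.20). Once the limit was left out, 9 of 14 higher and 30 of 56 lower genes stayed 2-fold apart, with log2 ratios under 2-fold for Fcnb (-0.63), Lgals3 (0.90), Ifitm3 (0.55), Anxa2 (0.67) and Anxa5 (0.53). Trafficking receptors had a median of -0.85 with 1 of 4 lower, protease processing genes 0.62 with 2 of 7 higher, and late neutrophil genes 0.63.

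Few genes separated TKO from TWT members. Of measured genes 9 (0.389%) were higher in TKO and 8 (0.346%) lower, at a median of 0.04. The lower genes included the targeted Diaph1 (log2 ratio -3.83, -5.07 to -3.14), Hist1h2ap, a histone H2A gene (94.6 CPM in DKO, against 442 in TWT, 349.5 in IL-6 KO and 104 in TKO), AY036118 (72.3, 71.1, 43.7 and 26.3 CPM) and Lars2. DKO was low for Hist1h2ap too. Histone genes are near-identical copies, and where reads match several of them the count of 1 copy is uncertain. Igkc, Gm10076 and Gm34084 were lower as well. Higher in TKO were Ube2c, a ubiquitin enzyme of mitosis (193 CPM in DKO, against 117 in TWT, 306 in IL-6 KO and 273 in TKO), and Pttg1 (securin, 217 CPM in DKO, against 22 in TWT, 25.2 in IL-6 KO and 156 in TKO). Tyms (1.06), Tuba1c (1.08), Nans (1.10) and Mtch2 (1.03) were also higher. Hbb-bs, Mcpt8 and Prss34 were higher too, through 1 cell for Mcpt8 and Prss34, as given below. Leaving out the gene limit, 3 of 9 higher and 4 of 8 lower genes stayed 2-fold apart, and the log2 ratios were 0.20 for Ube2c, 0.48 for Hbb-bs, -0.64 for AY036118 and -0.44 for Lars2, all under 2-fold.

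IL-6 KO members differed least from TWT members by number: 10 genes (0.433%) were higher and 2 (0.0865%) lower, at a median of -0.03. Retnlg, a resistin-like neutrophil protein, was at 54.5 CPM in DKO, against 56.8 in TWT, 255 in IL-6 KO and 28.5 in TKO. Of its UMIs in IL-6 KO members, 54.7% were in 3 of 93 cells and 20.6% in 1 cell. The IL-6 KO members held 4.13 UMIs each, and B cells of that library 4.59 by mean, with medians of 1.0 and 0. Irf8 (1.35, 0.94 to 1.82), Ube2c (1.38), S100a6 (1.27), S100a10 (1.10), Ifitm3 (1.01) and Lyz2 (1.06) were also higher, and Cirbp, a cold-inducible RNA-binding protein like Rbm3, was lower (76.9, 25.9, 126 and 43.4 CPM, log2 ratio -1.53). The higher genes also included Xist, Mcpt8 and Prss34, and the lower Prg2. As sex-linked genes set IL-6 KO apart, the IL6 genotype and a difference in sex cannot be told apart here. When cells above 4000 genes were added, 3 of 10 higher and 1 of 2 lower genes stayed 2-fold apart, and the log2 ratios were 0.24 for Irf8, 0.14 for Ube2c, 0.56 for Ifitm3, 0.41 for S100a10, 0.70 for Lyz2 and 0.094 for Retnlg, all under 2-fold. Directions turned for S100a6 with no limit on genes (-0.019), for Retnlg with a limit of 5000 genes (-0.18), for Ifitm3 and S100a10 in neutrophil-leaning members alone (-0.60 and -1.76), and for Irf8 in monocyte-leaning members alone (-0.23). All comparisons with TWT share the 67 TWT members, the fewest of any library.

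Genes with a miR-146a seed match in the 3′ untranslated region had a lower median than genes without one. Among 2288 measured genes with such a region, the 228 with the heptamer AGTTCTC had a median log2 ratio of DKO to TWT of -0.10, against 0.10 for the 2060 without, and 1 of them was 2-fold higher and 21 lower. The lower genes were 9.21% of those with a match and 5.92% of those without. For TKO against TWT the medians were -0.05 and 0.05. Where both libraries lacked or both had miR-146a, genes with a match were also lower by median: -0.07 against 0.02 for DKO against TKO, and -0.05 against -0.03 for IL-6 KO against TWT. The regions with a match were longer, with a median of 2358 bases against 622. Irak1, which holds both sites shown above, was at 35.3 CPM in DKO, against 79.7 in TWT, 69.8 in IL-6 KO and 42.8 in TKO, lower in DKO and TKO than in the other libraries. mRNA levels say nothing about repression of translation.

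Several large ratios rested on 1 cell or a few cells and are given as UMIs. Prss34, a basophil protease, had 0 UMIs in DKO, against 88 in TWT, 250 in IL-6 KO and 446 in TKO, and in each library with UMIs 1 cell held 97.7 to 99.2% of them. Prg2, an eosinophil granule protein, had 5 UMIs in DKO, against 342 in TWT, 2 in IL-6 KO and 392 in TKO, with 341 and 374 in 1 cell of TWT and of TKO. Mcpt8, a basophil protease, had 36 UMIs in DKO, against 67 in TWT, 266 in IL-6 KO and 244 in TKO, of which 1 cell held 48 in TWT, 252 in IL-6 KO, 230 in TKO and 4 in DKO. Hbb-bs, a hemoglobin chain, had 21 UMIs in DKO, against 81 in TWT, 72 in IL-6 KO and 1017 in TKO, with 66.6% of those of TKO in 1 cell and 86.6% in 3. These cells stayed members, and 7 members in DKO, against 5 in TWT, 1 in IL-6 KO and 8 in TKO held at least 3 UMIs of defining genes of another lineage or at least 1% hemoglobin. The directions of Mcpt8, Prg2, Hbb-bs and Prss34 reversed under at least 1 other choice.

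Markers of other cell types were low in sum. B cell markers summed to 71.2 CPM in DKO, against 278 in TWT, 334 in IL-6 KO and 172 in TKO, with Igkc (an immunoglobulin light chain) lowest in DKO both in members (146, 173, 16.2 and 49.7 CPM) and in B cells (60102, 77703, 10512 and 40045 CPM). Erythroid markers summed to 37.7 CPM in DKO, against 157 in TWT, 95.7 in IL-6 KO and 929 in TKO, basophil and mast cell markers to 30.5 CPM in DKO, against 497 in TWT, 411 in IL-6 KO and 685 in TKO, macrophage markers to 329 CPM in DKO, against 288 in TWT, 219.9 in IL-6 KO and 191 in TKO, and megakaryocyte markers to 53.9 CPM in DKO, against 8.24 in TWT, 7.31 in IL-6 KO and 5.71 in TKO, where 1 DKO cell held 83 of 85 Pf4 UMIs. T and NK cell, plasma cell and dendritic cell markers stayed at or under 17.4 CPM in every library. Transcripts such as Igkc were spread thinly over members, and their part in the comparisons was not tested. Without the members that held UMIs of another lineage the counts of DKO against TWT were 45 higher and 142 lower.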

How the data were processed

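Marrow of 4 genotypes was measured by 10x Genomics 3′ v3 single-cell RNA sequencing. The authors aligned the reads to mm10 with Cell Ranger (the matrix headers name software version 3.0.2), and the deposited values are whole-number UMI counts per gene (31053 genes) and called cell, with no normalization. The submitters' processing notes also name Seurat 4. The filters on genes and mitochondrial UMIs are those of the study's methods.

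Members were chosen per cell, their UMIs were summed per library and scaled to CPM, a gene was measured at a mean of at least 50 CPM, and a log2 ratio of at least 1 (pseudocount 1 CPM) was called 2-fold. No test was used with 1 library per genotype. Shares of cells followed thinning to 2000 UMIs, with shallower cells left out. Doublets were not called, and members with UMIs of another lineage were counted and left out in an alternative. No free RNA was subtracted. Genes named are the rule's genes and markers, the genes farthest apart in DKO from all 3 other libraries (up to 12 each way), the 5 farthest each way in TKO and IL-6 KO against TWT, and the 2 to 4 farthest of each of 40 gene lists. Other genes given (such as Camp, Kit, Ltf, Gm42418, Il6ra, Il6st and Pf4) were chosen after their values were seen. The members, lists and comparisons were chosen with earlier results of these data known. The calling rule was tested on simulated counts with known changes and Poisson counting error alone. These counts held no variation between cells or between libraries of a genotype, so they say nothing about it. Python 3.11.15, numpy 2.4.6, scipy 1.17.1, pandas 2.3.3 and matplotlib 3.10.9 were used.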

Additional observations from a re-analysis of the deposited data

How the results depend on the processing

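Over the alternatives, 140 of 184 recomputed shares stayed within their interval, 108 of 152 counts of genes within 1.5 times, 459 of 498 list medians within 0.5, and 1926 of 2204 log2 ratios of named genes stayed 2-fold in the same direction, with 217 short of 2-fold and 61 reversed. The shares and counts that moved and the log2 ratios that reversed follow. The 39 list medians that moved are not given here, nor is every log2 ratio that fell short of 2-fold. The cause of these changes was not tested, except that fewer or other cells or genes enter by construction. With no limit on specific granule genes, the share of members was 2.16% for TWT, 2.62% for IL-6 KO, 2.39% for DKO and 3.04% for TKO, the monocyte-leaning share was 6.74% for IL-6 KO, the mitotic share was 56.6% for TWT and 58.6% for TKO, TKO against TWT gave 4 genes higher and 5 genes lower and IL-6 KO against TWT gave 3 genes higher and 7 genes lower. With no upper limit on detected genes, the share of members was 3.23% for TWT, 2.66% for IL-6 KO, 1.24% for DKO and 3.60% for TKO, the monocyte-leaning share was 20.3% for TWT, 27.5% for IL-6 KO and 26.8% for TKO, the mitotic share was 56.4% for TWT, 60.9% for IL-6 KO and 56.7% for TKO, TKO against TWT gave 4 genes lower, IL-6 KO against TWT gave 3 genes higher and 5 genes lower and log2 ratios reversed to Prg2 0.16 and S100a6 -0.019 for IL-6 KO against TWT. With an upper limit of 5000 genes, an alternative chosen after seeing the data, the share of members was 2.48% for TWT, 2.20% for IL-6 KO and 2.97% for TKO, the monocyte-leaning share was 26.3% for IL-6 KO and 21.8% for TKO, IL-6 KO against TWT gave 5 genes lower and log2 ratios reversed to Prg2 0.029 and Retnlg -0.18 for IL-6 KO against TWT. With the granule genes at 0.5% or more, the share of members was 1.79% for TKO, the monocyte-leaning share was 17.4% for TKO, DKO against TKO gave 86 genes lower, IL-6 KO against TWT gave 7 genes lower and log2 ratios reversed to Mcpt8 -1.57 and Prss34 -1.30 for IL-6 KO against TWT. Without Mpo in the rule, the mitotic share was 57.4% for TWT and log2 ratios reversed to Mcpt8 1.42 for DKO against TKO, Mcpt8 -2.85 and Prss34 -4.43 for TKO against TWT, Mcpt8 -2.60, Prg2 0.30 and Prss34 -5.13 for IL-6 KO against TWT and Prg2 1.05 for DKO against TWT. Without thinning, the share with Kit was 59.7% for TWT, 61.3% for IL-6 KO, 28.4% for DKO and 43.8% for TKO and the mitotic share was 95.5% for TWT, 90.3% for IL-6 KO, 95.8% for DKO and 96.2% for TKO. Thinned to 5000 UMIs, the share with Kit was 21.3% for TWT, 34.5% for IL-6 KO, 10.8% for DKO and 12.8% for TKO and the mitotic share was 80.3% for TWT, 65.5% for IL-6 KO, 76.3% for DKO and 79.8% for TKO. With the granule genes at 2% or more, the monocyte-leaning share was 7.50% for IL-6 KO, IL-6 KO against TWT gave 6 genes higher and log2 ratios reversed to Mcpt8 0.49 and Prg2 1.09 for DKO against TWT, Mcpt8 1.40 for DKO against TKO, Mcpt8 -0.91 for TKO against TWT and Mcpt8 -0.64, Prg2 0.33 and Prss34 -0.25 for IL-6 KO against TWT. With specific granule genes under 0.5%, the mitotic share was 36.1% for IL-6 KO and IL-6 KO against TWT gave 4 genes lower. Without Prtn3 in the rule, the monocyte-leaning share was 0% for DKO. With cells thinned to 2000 UMIs before the rule, IL-6 KO against TWT gave 6 genes lower and log2 ratios reversed to Mcpt8 -1.45 and Prss34 -1.68 for IL-6 KO against TWT. Without members with UMIs of another lineage, IL-6 KO against TWT gave 1 gene lower and log2 ratios reversed to Hbb-bs -0.82 and Mcpt8 -0.74 for TKO against TWT, Mcpt8 0.081 and Prg2 0.23 for DKO against TWT, Mcpt8 0.82 for DKO against TKO and Mcpt8 -0.50, Prg2 0.25 and Prss34 -0.33 for IL-6 KO against TWT. With a pseudocount of 10 CPM, DKO against TKO gave 32 genes lower. At a mean of at least 20 CPM, DKO against TWT gave 94 genes higher and 563 genes lower, DKO against TKO gave 35 genes higher and 231 genes lower, TKO against TWT gave 20 genes higher and 57 genes lower and IL-6 KO against TWT gave 24 genes higher and 16 genes lower. At a mean of at least 100 CPM, DKO against TWT gave 22 genes higher and 44 genes lower, DKO against TKO gave 9 genes higher and 15 genes lower, TKO against TWT gave 5 genes higher and 2 genes lower and IL-6 KO against TWT gave 5 genes higher and 1 gene lower. With the mean of each cell's CPM, TKO against TWT gave 17 genes higher and 23 genes lower, IL-6 KO against TWT gave 6 genes lower and log2 ratios reversed to Mcpt8 -0.67 and Prss34 -0.54 for TKO against TWT and Mcpt8 -0.50 and Prss34 -1.33 for IL-6 KO against TWT. In neutrophil-leaning members only, IL-6 KO against TWT gave 3 genes higher and 7 genes lower and log2 ratios reversed to Ifitm3 -0.60, Mcpt8 -2.64, Prss34 -5.05 and S100a10 -1.76 for IL-6 KO against TWT. In monocyte-leaning members only (3 cells of DKO, 3 of TWT, 13 of IL-6 KO and 8 of TKO), DKO against TWT gave 714 genes higher and 517 genes lower, DKO against TKO gave 588 genes higher and 499 genes lower, TKO against TWT gave 411 genes higher and 263 genes lower, IL-6 KO against TWT gave 336 genes higher and 279 genes lower and log2 ratios reversed to AY036118 0.064, Mcpt8 -4.40 and Prss34 -4.40 for TKO against TWT, Anxa5 -1.13, Cdk6 0.94, Fli1 0.59, Herpud1 -1.12, Ier2 -7.15, Mcpt8 1.14, Mki67 2.43, Myh9 1.74, Nfkb1 0.18, Ngp -0.40, Slpi -0.095, Stat3 0.18 and mt-Atp8 1.14 for DKO against TWT, Anxa5 -0.54, BC005537 0.27, Fli1 0.31, Mcpt8 5.55 and Ngp -1.19 for DKO against TKO and Irf8 -0.23 and Prg2 2.63 for IL-6 KO against TWT. Other scaling (median of ratios, or CPM without genes above 1% of UMIs) and equal UMIs per library kept every count of genes within 1.5 times. No paired analysis was possible because each genotype has 1 library. Depth limits genes near 50 CPM, and the few cells limit every share.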

Other observations

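Pttg1, which encodes securin, was higher in DKO and TKO than in the others, at 217 CPM in DKO, against 22 in TWT, 25.2 in IL-6 KO and 156 in TKO. The share of members with a UMI was 91.6% in DKO, against 28.4% in TWT, 32.3% in IL-6 KO and 74.3% in TKO. The gene lies at chr11:43420250-43426251 (GRCm38), 45.8 kb from Mir146, the deleted microRNA gene, and it was the nearest measured gene. Above 4000 genes it was at 218 CPM in DKO, against 39.3 in TWT, 34.9 in IL-6 KO and 156 in TKO, and in B cells at 54.2 CPM in DKO, against 37.8 in TWT, 39 in IL-6 KO and 31.6 in TKO.

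The list of actin cytoskeleton genes (mDia1 nucleates actin) summed to 26985 CPM in DKO, against 28813 in TWT, 25303 in IL-6 KO and 26410 in TKO, and the 9 MHC class II genes, 0 of them measured, to 132 CPM in DKO, against 116 in TWT, 114 in IL-6 KO and 97 in TKO.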
